A study of Mus musculus with 2 samples.

Results

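The 10 miRNAs examined here are known as markers of muscle, blood, nerve and liver. On 2 arrays of mouse epidermal cells they had no value or one below the median of that array's measured values. The exception was miR-133a-3p in Pam212, just above that median. Of all 739 miRNA rows, 219 in LY-1 and 230 in Pam212 had a value at or above the median. With rows lacking a value placed below all others, 2 of the 10 miRNAs reached the Pam212 median. Against the median of both arrays pooled, 0 did. The muscle miRNAs are miR-1a-3p (miRBase accession MIMAT0000123), miR-133a-3p (MIMAT0000145) and miR-206-3p (MIMAT0000239). The blood miRNAs are miR-223-3p (MIMAT0000665), miR-150-5p (MIMAT0000160), miR-142-3p (MIMAT0000155) and miR-144-3p (MIMAT0000156). The neural miRNAs are miR-124-3p (MIMAT0000134) and miR-9-5p (MIMAT0000142), and the liver miRNA is miR-122-5p (MIMAT0000246). They were chosen by name for their tissue of origin and found by miRBase accession, and all 10 had a row among the 739 rows of the deposited table. The samples were LY-1, a metastatic line derived from Pam212, and Pam212 itself, an epidermal keratinocyte line of Balb/c strain that transformed spontaneously and is labelled non-metastatic. Both lines were untreated and grown to confluency in medium with 10% serum. Total RNA was labelled with Hy5 and put on 1-colour miRNA arrays. Each line was represented by 1 plate and 1 array, so no value below has a replicate, and no difference between the lines could be tested.

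MicroRNAs are short RNAs that guide Argonaute proteins to messenger RNAs, mostly by pairing of the seed near their 5′ end, and lower the output of those messages. Some are made in nearly all cells, and others follow the promoter of 1 lineage closely. miR-1 and miR-133a come from shared transcripts in heart and skeletal muscle, and miR-206 is made in skeletal muscle. miR-124 and miR-9 are made in neurons and neural progenitors, and miR-122 is the leading miRNA of hepatocytes. In blood, miR-223 belongs to the myeloid lineage, miR-150 to mature lymphocytes, miR-142 to blood cells in general, and miR-144 to red cell precursors. None of these lineages is that of a keratinocyte.

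Sequences of 5 of the 10 miRNAs were matched by name in the RefSeq table of build GRCm38.p6, where miR-142-3p is listed as miR-142a-3p. They are shown 5′ to 3′ with the seed, bases 2 to 8, in capitals, because the seed sets which messages each miRNA can pair with and shows that these 5 are not copies of one family.
miR-206-3p: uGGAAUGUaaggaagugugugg
miR-223-3p: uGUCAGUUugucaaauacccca
miR-142-3p: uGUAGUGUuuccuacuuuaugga
miR-144-3p: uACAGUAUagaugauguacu
miR-9-5p: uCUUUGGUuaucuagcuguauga
The 5 seeds differ from each other. The closest pair, miR-206-3p and miR-142-3p, has the same base at 5 of the 7 seed positions. Among the 1679 mature miRNA names of the RefSeq table, miR-6349 and miR-6382 share the full seed of miR-206-3p, and no other listed name shares the seed of the remaining 4. miR-206-3p is also known to share its seed with miR-1. The 5 sequences are 20 to 23 bases long, and their G and C content runs from 30% in miR-144-3p to 45.5% in miR-206-3p.

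In GRCm38.p6, miR-206-3p lies at chr1:20679055-20679076 on the plus strand, in the hairpin Mir206, which overlaps the gene Lincmd1 and has Mir133b within 10 kb. miR-223-3p lies at chrX:96242884-96242905 on the plus strand, where the hairpin Mir223 overlaps F630028O10Rik. miR-142-3p lies at chr11:87756903-87756925 on the plus strand, and its hairpin overlaps Mir142b. miR-144-3p lies at chr11:78073047-78073066 on the plus strand, and Mir451a and Mir451b are within 10 kb of its hairpin. miR-9-5p is made from 3 hairpins with the same mature sequence, at chr3:88215613-88215635, chr13:83738821-83738843 and chr7:79505279-79505301, all on the plus strand. For the muscle pair, the hairpins Mir1a-1 and Mir133a-2 both overlap the gene Mir1a-1hg. Mir1a-2 and Mir133a-1 both overlap Mir133a-1hg and Mib1, and Mir1a-2 also overlaps Mir1b. The files give no genome build for the array's own probes.

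Values were present for 5 of the 10 miRNAs in LY-1 and for 4 of the 10 in Pam212. Over all rows, 59.1% had a value in LY-1 and 62.2% in Pam212, against 50% and 40% of the 10 miRNAs. Values on both arrays were present for 3 miRNAs (miR-133a-3p, miR-206-3p and miR-142-3p), 2 in LY-1 only (miR-122-5p and miR-223-3p), 1 in Pam212 only (miR-144-3p) and 4 on neither (miR-1a-3p, miR-124-3p, miR-9-5p and miR-150-5p). Both values were present in 47.9% of all 739 rows, against 30% of the 10. A value in LY-1 only was present in 11.2%, against 20%, and in Pam212 only in 14.3%, against 10%. The share without any value was 40% of the 10, against 26.5% of all 739 rows. The sources used here do not say what an empty cell of the table stands for, so it is reported as no value and not as absence of the miRNA.

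The signals that were present lay in the lowest part of the LY-1 array and between the bottom and the middle of the Pam212 array. Measured intensities ran from 0.948 to 51140 units in LY-1, with a median of 2.44, and from 0.943 to 51459 units in Pam212, with a median of 2.16. In LY-1 the 5 measured miRNAs read from 0.964 to 1.15 units, and none reached the array's median. In Pam212 the 4 measured miRNAs read from 0.975 to 2.22 units, and 1 of them, miR-133a-3p, stood just above the median. The 5th percentile of measured values was 1.01 in LY-1 and 1.04 in Pam212, and 4 of the 5 miRNAs in LY-1 and 1 of the 4 in Pam212 were at or below it. Intensity depends on the probe as well as on the RNA, so these ranks place the signals on the array and do not order the miRNAs by abundance.

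**Figure D1:**
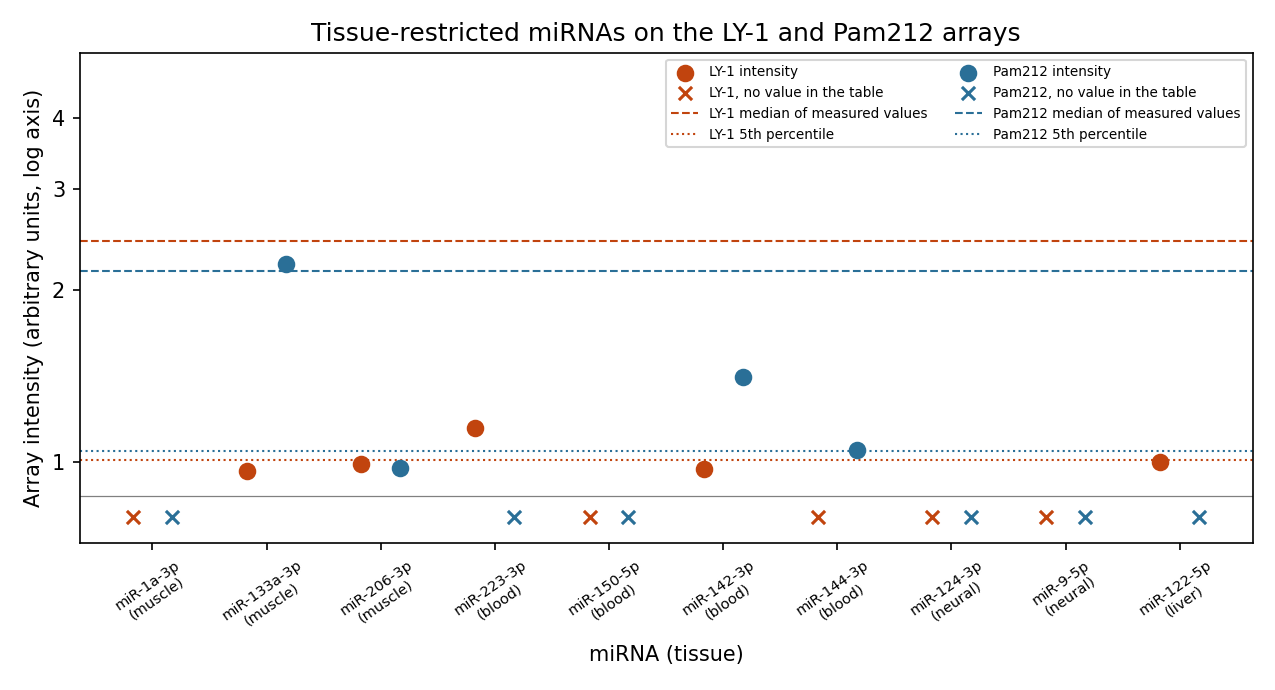
Intensity of the 10 tissue-restricted miRNAs on the LY-1 array (orange) and the Pam212 array (blue), in arbitrary units on a log axis; crosses below the grey line mark miRNAs with no value, dashed lines the median and dotted lines the 5th percentile of each array's measured values. All points but that of miR-133a-3p in Pam212, at 2.22 units, lie below the medians, and 4 of the 5 LY-1 points lie at or below the LY-1 5th percentile of 1.01 units.

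Among the muscle miRNAs, miR-133a-3p, which restrains SRF in muscle, read 0.964 units in LY-1 and 2.22 units in Pam212. Its LY-1 value was 0.396 times that array's median, with 7 of 437 measured values below it. Its Pam212 value was 1.03 times the median, with 236 of 460 measured values below it. Its signal was thus near the middle rank of measured values in Pam212 and near the lowest in LY-1. Even the Pam212 value was only 2.35 times that array's lowest, on a scale reaching 51459 units. The log2 difference (LY-1 minus Pam212) was -1.20, or 2.30-fold lower in LY-1. miR-133a-3p is the only one of the 3 miRNAs measured on both arrays with a difference of 2-fold or more. Of all 354 rows with both values, 5.65% were at least 2-fold lower in LY-1 and 9.32% at least 2-fold higher, and of the 3 miRNAs, 1 was lower and 0 were higher.

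With the values of both arrays pooled the median was 2.26 units, and neither value of miR-133a-3p reached it, the Pam212 value, at 2.22 units, being just short. Calls of size were limited to rows whose brighter value reached this pooled median, and none of the 10 miRNAs did. Of the 252 rows that reached it, 6.35% were at least 2-fold lower and 12.7% at least 2-fold higher in LY-1, which is 16 and 32 rows, and after quantile normalization 22 rows were lower and 27 higher. Among the 102 rows with both values below the pooled median, the median size of the log2 difference was 0.25, and none exceeded the 1.20 of miR-133a-3p. Since both values of such a row must lie between the table's minimum and the pooled median, the size could not exceed 1.26. Of those 102 rows, 4 were at least 2-fold lower in LY-1, miR-133a-3p among them, and 1 at least 2-fold higher. Of all 354 rows with both values, 10 had a lower log2 difference than miR-133a-3p. Adding 1.02 units to both values, the pooled 5th percentile, brought the log2 difference of miR-133a-3p to -0.71, under 2-fold.

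miR-206-3p, which promotes muscle differentiation, read 0.991 units in LY-1 and 0.975 units in Pam212. On the LY-1 array 15 of 437 measured values were lower, and on the Pam212 array 7 of 460. Both values lay within the lowest 5% of their array, and the log2 difference was 0.02, a sign that turned to -0.02 when the arrays' 75th percentiles were made equal. miR-1a-3p, the muscle miRNA that restrains HDAC4 and cardiac growth genes, had no value in either line. The hairpins Mir1a-1 and Mir133a-2 share the gene Mir1a-1hg, and Mir1a-2 and Mir133a-1 share Mir133a-1hg and an overlap with Mib1. miR-133a-3p had values in both lines and miR-1a-3p had none. The LY-1 value of miR-133a-3p was near that array's lowest, and an empty cell is not shown absence, so no difference between the pair can be read from this.

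Of the 4 blood miRNAs, miR-142-3p, a miRNA of most blood lineages, was the only one with values in both lines. It read 0.973 units in LY-1, where 9 of 437 measured values were lower, and 1.41 units in Pam212, where 135 of 460 were lower. The LY-1 value was 0.400 times that array's median and the Pam212 value 0.651 times. The log2 difference was -0.53, or 1.45-fold lower in LY-1, under the 2-fold size used for a call. Of the 102 rows with both values below the pooled median, 23 had a larger difference in size.

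The remaining blood miRNAs were split between the lines. miR-223-3p, which limits granulocyte production and activation, read 1.15 units in LY-1 with 59 of 437 measured values below it, and had no value in Pam212. miR-144-3p, which is transcribed with miR-451 in red cell precursors, had no value in LY-1 and read 1.05 units in Pam212 with 27 of 460 measured values below it. miR-150-5p, which restrains Myb in lymphocytes, had no value in either line. Among the blood miRNAs there was thus 1 with both values, 1 in LY-1 only, 1 in Pam212 only and 1 with none.

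Neither neural miRNA had a value in either line. miR-124-3p represses non-neuronal messages, among them PTBP1, during neuron formation, and miR-9-5p acts on neural progenitor regulators such as REST. The liver miRNA miR-122-5p, which acts in lipid metabolism and in human cells binds hepatitis C virus RNA, had a value in LY-1 only. It read 1.00 units there, 0.411 times the array's median, and 21 of 437 measured values were lower.

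Having a value on 1 array only was common among dim rows. In the dimmest quartile of LY-1 values, up to 1.34 units, 51 of 110 rows (46.4%) had no Pam212 value, and in the dimmest quartile of Pam212 values, up to 1.35 units, 66 of 115 (57.4%) had no LY-1 value. In the brightest quartiles 1 of 109 rows and 1 of 115 rows lacked a value on the other array. The 3 miRNAs with a value in 1 line all fell in these dimmest quartiles. miR-122-5p and miR-223-3p, at 1.00 and 1.15 units, were below the median of 1.22 units of the 83 rows listed in LY-1 only. miR-144-3p, at 1.05 units, was below the median of 1.27 units of the 106 rows listed in Pam212 only. A fold difference was not computed for these 3, and their being listed in 1 line is not a measured difference between the lines.

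The plot of both arrays places the 3 miRNAs with paired values along the lower edge of the LY-1 scale. Their LY-1 values were 0.964, 0.973 and 0.991 units, while their Pam212 values spread from 0.975 to 2.22 units. The LY-1 values were nearly equal and close to that array's lowest, 0.948 units. The order of the log2 differences was therefore set by the Pam212 values and is not a separate result.

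**Figure D2:**
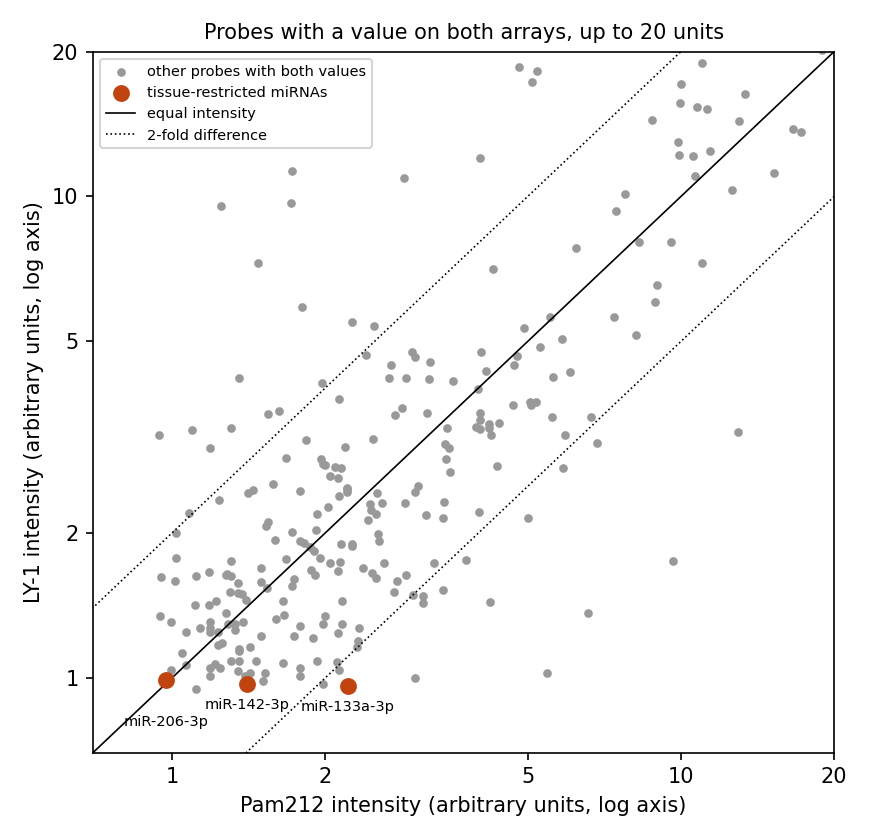
LY-1 intensity (vertical) against Pam212 intensity (horizontal), in arbitrary units on log axes, for 257 of the 354 rows with both values; the other 97 lie beyond 20 units and are not drawn. miR-206-3p, miR-142-3p and miR-133a-3p (orange) lie at LY-1 values of 0.964 to 0.991 units, and miR-133a-3p is below the dotted line of a 2-fold difference.

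The LY-1 values were also set beside those of rows of like brightness in Pam212. Within 10% of the Pam212 value of miR-133a-3p there were 32 other rows, of which 31 had a LY-1 value. Those LY-1 values ran from 0.963 to 5.49 units with a median of 1.89, and 1 of the 31 lay below that of miR-133a-3p. Around miR-142-3p there were 68 other rows, of which 37 had a LY-1 value, from 0.987 to 7.27 units with a median of 1.49, and 0 of the 37 were lower than miR-142-3p. Around miR-206-3p there were 35 other rows, of which 13 had a LY-1 value, from 0.998 to 3.20 units with a median of 1.31, and 0 of the 13 were lower. All 3 miRNAs were thus at or next to the lowest LY-1 value among rows of like Pam212 brightness. Such a place was largely set by their rank on the whole LY-1 array. There, 7, 9 and 15 of 437 measured values were lower than miR-133a-3p, miR-142-3p and miR-206-3p. The windows therefore add no separate support for a low LY-1 value. This comparison was chosen after the values were seen, rows without a LY-1 value are left out of it, and with 1 array per line it describes these arrays only.

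**Figure D3:**
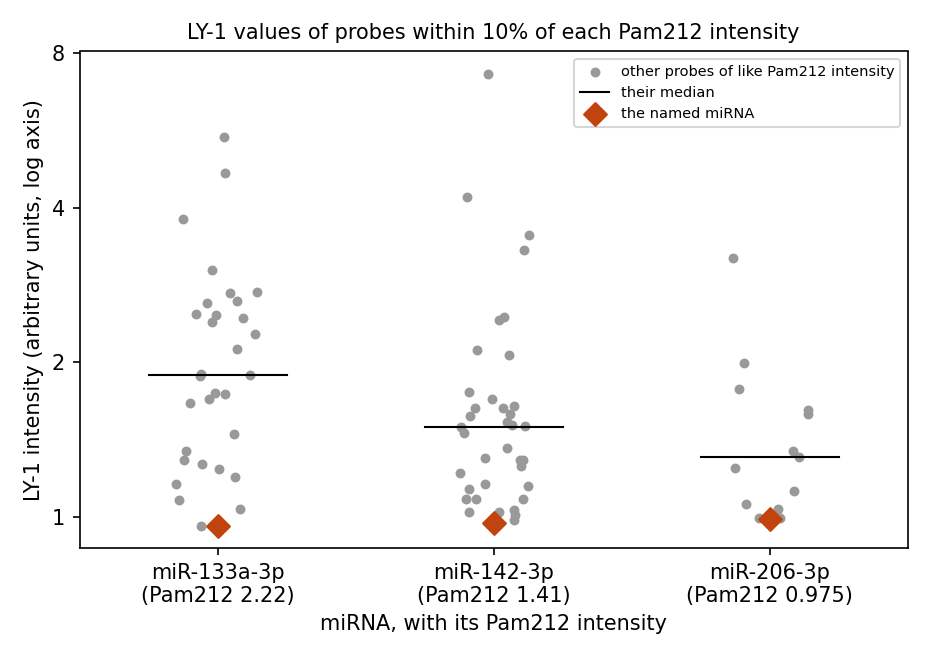
LY-1 intensity, in arbitrary units on a log axis, of rows whose Pam212 intensity was within 10% of that of miR-133a-3p, miR-142-3p or miR-206-3p (grey points, 31, 37 and 13 rows, spread sideways for visibility), with their median (black line) and the miRNA itself (orange diamond). Rows without a LY-1 value, 1 of 32, 31 of 68 and 22 of 35, are not drawn. Each diamond is at or next to the bottom of its column, against medians of 1.89, 1.49 and 1.31 units. These places were largely set by the rank of each miRNA on the whole LY-1 array.

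The row most like miR-133a-3p in both values was MIMAT0005543, at 0.963 units in LY-1 and 2.21 units in Pam212. The next was MIMAT0009442, at 1.04 units in LY-1 and 2.13 units in Pam212, a distance of 0.12 in the plane of the log2 intensities. The nearest rows to miR-206-3p and miR-142-3p lay at distances of 0.01 and 0.05. Likeness here rests on 2 values per row and says only that other probes gave similar readings.

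All 10 accessions are numbered under 1000, among miRBase's early entries. The 193 other rows with 1 accession in that range had a value in 71.0% for LY-1 and 74.6% for Pam212, against 50% and 40% of the 10 miRNAs. Their measured values had a median of 7.07 units in LY-1 and 5.41 units in Pam212, against medians of 0.991 and 1.23 units for the measured miRNAs of the 10. Values were missing on both arrays for 17.6% of those rows, against 40% of the 10. These shares and medians describe 10 rows and were not tested.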

How the data were processed

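The deposited table holds 1 linear intensity per row and array, and the steps by which the authors made it are not given in the sources used here beyond Hy5 labelling and duplicate spots, per the labels' protocols and the series text. No per-spot, background or error value was used here, so no error can be put on an intensity, and the number of arrays, 1 for each line, limits the precision throughout. Values were used as deposited. Differences are log2 LY-1 minus log2 Pam212 without a pseudocount, where both values exist. A size call needed 2-fold and a brighter value of at least 2.26 units, the pooled median. No test or p-value was possible.

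The 10 miRNAs were named by the list of accessions that defines them. The reference tables hold no miRBase accessions, so no other row was named. The companion miRNAs, opposite arms, and the keratinocyte and fibroblast markers that were listed were not analysed here, and the cell type labels were not checked against markers. The rule for named rows took the 10 miRNAs, and the 2 rows nearest to each of the 3 with paired values; of these 6 rows, 2 are identified, since accessions alone say little. Members and lists were chosen with earlier results of these data known. Sequences are from RefSeq, GRCm38.p6. Calculations used Python 3.11.15, numpy 2.4.6, pandas 2.3.3, statsmodels 0.14.6 and matplotlib 3.10.9. Only the calculation of log2 differences was tested on simulated data, not the counts, ranks or brightness windows.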

Additional observations from a re-analysis of the deposited data

How the results depend on the processing

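No setting brought any of the 10 miRNAs to the limit in LY-1: under all 5 alternatives 0 were at or above it. The median of rows with both values (3.31 units) and the pooled 75th percentile (11.0 units) exceed the LY-1 median, so their 0 was fixed beforehand. Leaving out rows of several accessions left the limit at 2.44 units. The lowest limit, 1.17 units, came from placing rows without a value below all others, and miR-223-3p, at 1.15 units, fell just short. In Pam212 the count of 1, miR-133a-3p, was 0 against the median of rows with both values, the pooled median or the pooled 75th percentile, and 2 with rows lacking a value placed below all others, which lowers the limit to 1.27 units. It was 1 without the 5 rows of several accessions. The log2 difference of miR-133a-3p ran from -1.25 to -0.71 over 5 alternatives, at -1.10 with the lowess trend (span 0.5) subtracted and -0.71 with the pseudocount, which shrinks low values by construction. That of miR-142-3p ran from -0.57 to -0.28, the last with the pseudocount, and that of miR-206-3p from -0.02 to 0.11. Of the 15 values, 12 moved by less than 0.1. Over all rows past the floor, 32 were 2-fold higher and 16 lower. The counts were 18 and 6 with both values at the pooled median, 63 and 43 at 1.5-fold, 15 and 7 at 3-fold, 25 and 8 with the pseudocount, 27 and 22 after quantile normalization, and 33 and 20 with no floor; the stricter settings test fewer rows or larger sizes by construction. The listed companion miRNAs were not run, because rows carry no names. No paired analysis was possible because each line has 1 array. Leaving out a replicate was not possible for the same reason. Low intensity limits all values here, since no member of the 10 reached the pooled median of 2.26 units.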
